A study of Mus with 30 samples.

Results

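Gnai3 and Gna12 each encode an alpha subunit of a heterotrimeric G protein, and the level of 1 transcript of each gene was followed in the hearts of 30 mice. The members were the 2 identifiers ENSMUST00000000001 (Gnai3) and ENSMUST00000000153 (Gna12), out of 36503 identifiers in all tables together, and both were listed in each of the 30 tables. The pairing of these identifiers with the gene symbols was taken as given. RefSeq places Gnai3 on chromosome 3, from 108107275 to 108146152, and Gna12 on chromosome 5, from 140759944 to 140830431 (build GRCm38.p6, the assembly behind mm10, the build in the submitters' processing notes). Both intervals are whole genes, and the exons of the transcripts were not analysed here.

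A G protein alpha subunit binds GTP when a receptor is activated, leaves its beta and gamma partners and acts on an effector enzyme or exchange factor until the GTP is hydrolysed. The type 1 receptor for angiotensin II (Ang II), the hormone infused here, is known to couple mainly to the Gq family and also to the Gi and G12 families. The product of Gnai3 belongs to the Gi family, which inhibits adenylyl cyclase and so lowers cyclic AMP. The product of Gna12 belongs to the G12 family, which activates the small GTPase RhoA through exchange factors, a route known for its part in contraction and cytoskeletal remodelling. Both genes are expressed in many cell types, so bulk heart RNA does not show which cells their transcripts came from. In such RNA a change in the number of cells of a type cannot be told apart from a change in the RNA of each cell.

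Cardiac tissue was analysed from 5 C57BL/6 mice in each of 6 groups, and the study's methods, which describe the Control, Ang II and gastrodin groups, state male mice obtained as young adults. The left part of each heart was used for RNA according to these methods. They state 6 mice a group for RNA sequencing, whereas the data used here hold 5 a group. The Control group received a 28-day saline infusion and saline treatment. The Ang II group received a 28-day infusion of Ang II at 500 ng/kg/min and saline treatment. The remaining groups received the same infusion with ethoxysanguinarine, baicalin or gastrodin at 5 mg/kg/day, or with valsartan, a blocker of the Ang II type 1 receptor, at 10.4 mg/kg/day. No group received a compound without Ang II. No genetic change was made in any group, and the infusion raises blood pressure as a whole, so that an action of Ang II on the heart itself and the load on the heart cannot be told apart. Each mouse had its own table of transcript levels, taken to be in FPKM (fragments per kilobase of transcript and per fixed number of mapped fragments), and the number of reads behind a value is unknown. The values of a library summed to between 562189 and 654188, and between 16269 and 19365 of the 28298 transcripts listed in every table were at 1 FPKM or more. The 2 libraries least like the rest of their group were those of Ang II + baicalin mouse 5113 and Ang II mouse 5156, whose mean correlations with their own group were 0.798 and 0.799. The next lowest value was 0.812. The tissue label was not checked against marker genes, because the reference table used pairs no Ensembl identifiers with symbols.

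Gna12 was the more abundant of the pair in every heart. The values are set side by side on the assumption that they are FPKM, which is scaled for transcript length. Each belongs to 1 transcript, so the comparison does not cover all transcripts of the genes. Across the 30 mice Gna12 was at 40.4 ± 4.10 FPKM and Gnai3 at 7.20 ± 1.27 FPKM (mean ± SD, n = 30), and Gna12 exceeded Gnai3 in 30 of 30 mice. Gna12 lay at the 95.7th percentile of level and Gnai3 at the 77.1st, among 19471 transcripts with a mean of at least 1 FPKM in all tables. Pooled over the groups, both varied less between mice of a group than the median of these transcripts, which were not matched to the members for level. The within-group SD on the log2(FPKM + 1) scale was 0.18 for Gnai3 and 0.14 for Gna12, whereas the median of these transcripts was 0.44. On the linear scale the within-group coefficient of variation averaged 13.4% for Gnai3 and 9.71% for Gna12.

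Gnai3 had its lowest group mean in the Control hearts. The 5 Control mice had 5.09, 5.74, 5.97, 6.10 and 6.19 FPKM of Gnai3. In the Ang II group the values were 5.90, 6.83, 7.13, 8.28 and 10.1 FPKM. Only 1 of the Ang II mice, 5130, lay within the range of the Control mice, and the highest value came from mouse 5156. With ethoxysanguinarine the values were 5.99, 6.23, 7.19, 8.17 and 8.84 FPKM. With baicalin they were 7.17, 7.46, 8.23, 8.26 and 10.8 FPKM, the last in mouse 5113. Every baicalin mouse was above every Control mouse. With gastrodin the values were 6.70, 6.73, 7.0, 7.14 and 7.53 FPKM, again above every Control mouse. With valsartan they were 5.90, 6.39, 7.09, 7.70 and 8.17 FPKM. Of the 25 mice infused with Ang II, 22 were above the highest Control mouse, and the 3 that were not belonged to the Ang II, ethoxysanguinarine and valsartan groups. The share of all transcripts with such a count was not computed, so whether it is unusual is unknown. The gastrodin mice were close together (SD 0.337 FPKM) and the Ang II mice far apart (SD 1.60 FPKM), a difference in spread that was not tested.

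**Figure D1:**
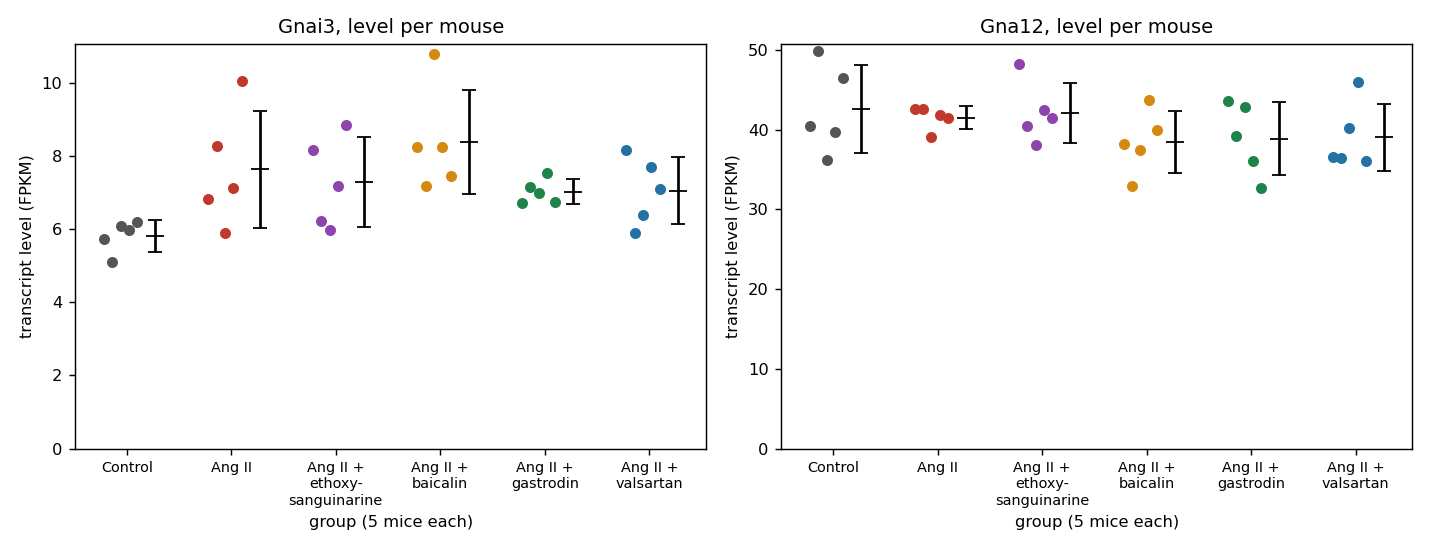
Level of Gnai3 (left) and Gna12 (right) in FPKM (vertical axes, linear and starting at 0, with separate scales) in the 6 groups; points are single mice (5 a group), with the group mean and its SD drawn as a bar. The Control group has the lowest mean of Gnai3, with mice between 5.09 and 6.19 FPKM, a range that 3 of the 25 infused mice share. The share of all transcripts with such a count was not computed. For Gna12 every group overlaps with Control.

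The group means of Gnai3 ran from 5.82 ± 0.441 FPKM in Control (SD, n = 5) to 8.38 ± 1.42 FPKM in the baicalin group (SD, n = 5). Between these, in ascending order of the mean log2(FPKM + 1), stood valsartan at 7.05 ± 0.926, gastrodin at 7.02 ± 0.337, ethoxysanguinarine at 7.29 ± 1.23 and Ang II at 7.64 ± 1.60 FPKM (SD, n = 5 each). The test of each step was an exact permutation test of the difference in mean log2(FPKM + 1), two-sided, adjusted over the 30 tests made (15 pairs of groups for each of the 2 transcripts). The lowest step, from Control to valsartan, was 0.24 on the log2 scale (exact permutation p = 0.0397, adjusted p = 0.198). At the steps above it no difference was detected, with exact permutation p = 1 from valsartan to gastrodin, 0.730 from gastrodin to ethoxysanguinarine, 0.738 from ethoxysanguinarine to Ang II and 0.405 from Ang II to baicalin. The order came from these same means, which makes neighbours close, so these p do not show that the levels are equal.

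The first question of the design is what Ang II does to the heart. Gnai3 was 1.31 times as high in the Ang II group as in Control by the means. On the log2(FPKM + 1) scale the difference was 0.33 (95% interval 0.02 to 0.63, SE 0.14), and with Benjamini-Hochberg adjustment over the 18354 transcripts tested it was not called (limma, adjusted p = 0.521). The background must be read beside it, since 9.13% of all transcripts had an unadjusted p under 0.05 in this comparison, as did Gnai3 here and in 12 of 19 alternatives, and 0.0381% an adjusted p under 0.05. A smaller p than that of Gnai3 was found for 7.22% of them. The exact permutation test gave p = 0.0317 (adjusted p = 0.190), where 0.00794 is the smallest value that 5 mice against 5 allow. Without Ang II mouse 5156, one of the 2 libraries least like their group, the log2 difference was 0.23 (limma, adjusted p = 0.620). This fit counts as 2 of the 19 alternatives, because the other of those 2 libraries is not in this comparison.

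For Gna12 no difference between these groups was detected. The Control mice had 36.2, 39.6, 40.5, 46.4 and 49.9 FPKM of Gna12. The Ang II mice had 39.0, 41.4, 41.9, 42.5 and 42.6 FPKM, all inside the range of the Control mice. The means were 42.5 ± 5.52 and 41.5 ± 1.47 FPKM (SD, n = 5 each). The log2 difference of Ang II from Control was -0.03 (95% interval -0.24 to 0.19, limma, adjusted p = 0.952). Its sign turned when Control mouse 5155 or 5153 was left out (0.03 and 0.0069).

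The other comparisons with Control all involve mice that received Ang II and a compound, and they share the same 5 Control mice. For Gnai3 the baicalin group gave the largest difference, 0.45 on the log2 scale (95% interval 0.18 to 0.72, SE 0.12) or 1.44 times by the means. It ranked 209 by p among 18437 transcripts and was not called after adjustment (limma, adjusted p = 0.371). Without mouse 5113 the difference was 0.37 (limma, adjusted p = 0.429). With gastrodin it was 0.24 (95% interval 0.05 to 0.43, limma, adjusted p = 0.578), or 1.21 times by the means. These were the pairs whose values did not overlap, and both had an exact permutation p of 0.00794 (adjusted p = 0.119). That p is the smallest the exact test allows here, and these pairs alone could not pass over the 30 tests. The adjusted p therefore cannot decide whether they differed. Higher values with no overlap were found for 0.629% of all transcripts tested between baicalin and Control and for 1.15% between gastrodin and Control. The ethoxysanguinarine group differed from Control by 0.27 (95% interval 0.0036 to 0.54, limma, adjusted p = 0.558) and the valsartan group by 0.24 (95% interval -0.0072 to 0.48, limma, adjusted p = 0.887). At an adjusted p under 0.05 the background was 0.225% of transcripts for ethoxysanguinarine, 0.0108% for baicalin, 0.0703% for gastrodin and 0.0108% for valsartan, and Gnai3 was in none of these 4 sets. At an unadjusted p under 0.05 the background was 8.88%, 8.41%, 7.68% and 5.62% in the same order, and Gnai3 was in the sets of ethoxysanguinarine, baicalin and gastrodin. Under the alternatives tried Gnai3 was in this set in 8 of 18 for ethoxysanguinarine, 19 of 19 for baicalin, 17 of 18 for gastrodin and 2 of 18 for valsartan. For baicalin the fit without mouse 5113 is counted both as a mouse left out and as the removal of the least alike libraries.

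When all 25 infused mice were set against the 5 Control mice in 1 fit of the 6 groups, a comparison added after the values were seen, Gnai3 was higher by 0.30 on the log2 scale (95% interval 0.11 to 0.50, SE 0.093). With an adjusted p of 0.190 (limma) over 24844 transcripts it was not called, against a background of 0.451% called and 9.72% at an unadjusted p under 0.05, and 1.67% of transcripts had a smaller p than Gnai3. After quantile normalization of the same libraries the difference was 0.32 and the adjusted p 0.0436 (limma), the only setting of those tried in which Gnai3 passed in any comparison. Over the other alternatives for this comparison the direction stayed the same, and the range over all of them was 0.0436 to 0.491 in adjusted p (limma). Gna12 was lower by 0.08 in the infused mice (log2 difference -0.08, 95% interval -0.23 to 0.07, limma, adjusted p = 0.779), and this difference was -0.02 without Control mouse 5155, -0.05 without Control mouse 5153 and -0.14 without Control mouse 5116. A test of all 6 group means together gave F = 3.0 for Gnai3 (limma F test, adjusted p = 0.440) and F = 0.916 for Gna12 (adjusted p = 0.879), with 9.49% of transcripts at an unadjusted and 0.157% at an adjusted p under 0.05.

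**Figure D2:**
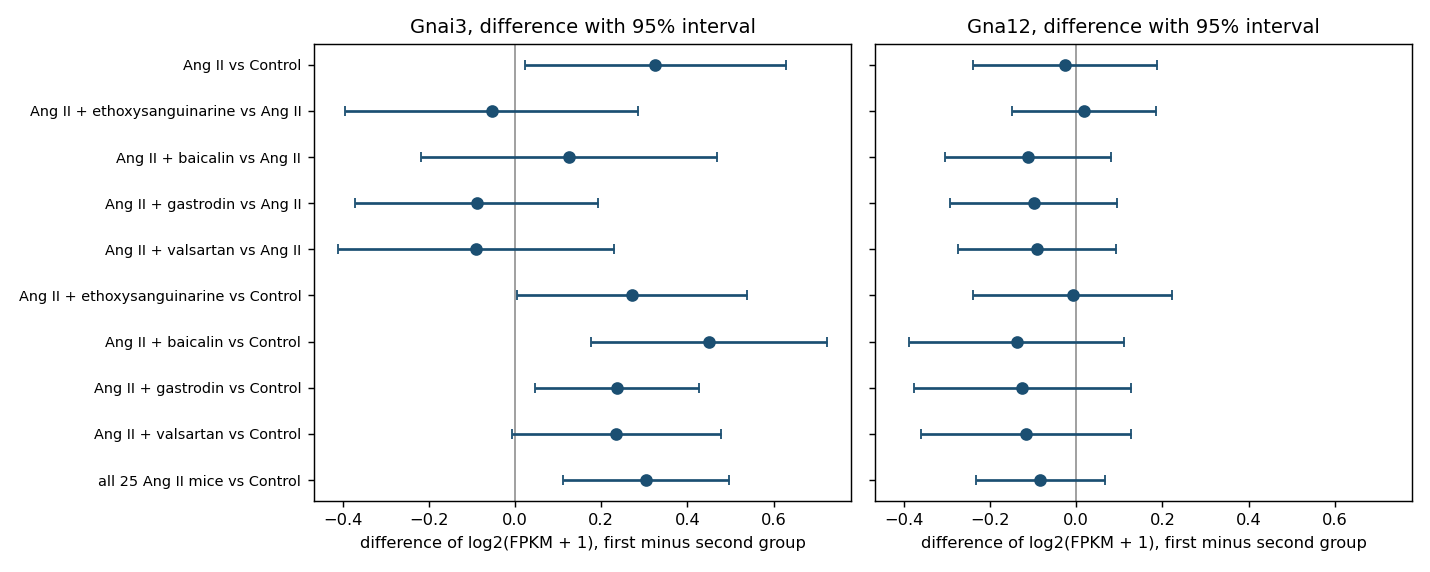
Difference of log2(FPKM + 1), first minus second group (horizontal axes), for Gnai3 (left) and Gna12 (right) in 10 comparisons (rows); points are limma estimates and bars their 95% intervals, without adjustment for the number of transcripts. For Gnai3 the estimates against Control lie between 0.24 and 0.45, and of these only the valsartan interval (-0.0072 to 0.48) includes 0. All Gnai3 intervals against Ang II and all Gna12 intervals include 0. In no comparison shown did either transcript have an adjusted p under 0.05 (limma).

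The next question is whether a compound given with Ang II moved the subunits away from the Ang II group. For Gnai3 no difference was detected, and the 4 comparisons share the same Ang II mice. The log2 difference from Ang II was 0.13 with baicalin (95% interval -0.22 to 0.47, limma, adjusted p = 0.846). It was -0.09 with gastrodin (95% interval -0.37 to 0.19, limma, adjusted p = 0.916). With valsartan it was -0.09 (95% interval -0.41 to 0.23, limma, adjusted p = 0.936), and with ethoxysanguinarine -0.05 (95% interval -0.39 to 0.29, limma, adjusted p = 0.957). The background of transcripts called at an adjusted p under 0.05 was 0.0165% for baicalin, 0.022% for gastrodin, 0.022% for valsartan and 0.132% for ethoxysanguinarine. These values moved with single mice. Without Ang II mouse 5156 the differences were 0.0043 for gastrodin, 0.0035 for valsartan and 0.04 for ethoxysanguinarine, and without ethoxysanguinarine mouse 5118 the last was 0.0040. The baicalin difference was 0.04 without baicalin mouse 5113, 0.05 without Ang II mouse 5130 and 0.22 without Ang II mouse 5156.

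In the treated groups Gna12 ran from 32.7 FPKM in a gastrodin mouse to 48.2 FPKM in an ethoxysanguinarine mouse. With ethoxysanguinarine the 5 mice had 38.1, 40.4, 41.5, 42.5 and 48.2 FPKM of Gna12. With baicalin they had 33.0, 37.4, 38.2, 40.0 and 43.7 FPKM, with a mean of 38.4 ± 3.91 FPKM (SD, n = 5), the lowest of the groups. With gastrodin the values were 32.7, 36.0, 39.2, 42.9 and 43.5 FPKM. Valsartan mice had 36.0, 36.4, 36.6, 40.2 and 45.9 FPKM, so that 21 of the 25 infused mice lay within the range of the Control mice. The others were all below the lowest Control mouse. These were baicalin mouse 5154, gastrodin mice 5112 and 5163 and valsartan mouse 5194. No share over all transcripts was computed for this count. In ascending order of mean log2(FPKM + 1) the groups were baicalin, gastrodin, valsartan, Ang II, ethoxysanguinarine and Control. No difference was detected between neighbouring groups in this order, as the exact permutation p was 0.905, 0.937, 0.214, 0.810 and 0.937 for the 5 steps. Since the order came from these same means, neighbours are close by construction, and equal levels are not shown. All 15 pairs of groups overlapped for Gna12, and the lowest exact permutation p among them was 0.143, between Ang II and baicalin (adjusted p = 0.518).

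Against the Ang II group, Gna12 differed by -0.11 on the log2 scale with baicalin (95% interval -0.30 to 0.08, limma, adjusted p = 0.719), by -0.10 with gastrodin (95% interval -0.29 to 0.10, adjusted p = 0.864) and by -0.09 with valsartan (95% interval -0.27 to 0.09, adjusted p = 0.904). With ethoxysanguinarine the difference was 0.02 (95% interval -0.15 to 0.18, limma, adjusted p = 0.975). After quantile normalization the baicalin and valsartan differences had the opposite sign, at 0.035 and 0.0014. Without baicalin mouse 5154 the baicalin difference was -0.06, and without gastrodin mouse 5112 the gastrodin difference was -0.04. Against Control the estimates were -0.14 with baicalin, -0.12 with gastrodin, -0.12 with valsartan and -0.0083 with ethoxysanguinarine, with adjusted p between 0.774 and 0.989 (limma). Without Control mouse 5155 the first 3 were -0.08, -0.07 and -0.06, and quantile normalization brought baicalin to -0.02. The ethoxysanguinarine difference turned positive after quantile normalization (0.02) and with equal library sums (0.01).

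Ethoxysanguinarine, baicalin and gastrodin were given at the same daily dose by mass with the same Ang II infusion, and their groups were compared with each other. Whether this dose is equivalent between the compounds is unknown. Gnai3 was higher with baicalin than with gastrodin by 0.21 on the log2 scale (exact permutation p = 0.0317, adjusted p = 0.190 over the 30 tests), with overlapping values. Between baicalin and ethoxysanguinarine the difference was 0.18 (exact permutation p = 0.214), and between gastrodin and ethoxysanguinarine 0.04 (exact permutation p = 0.730). For Gna12 the differences between these groups were 0.13 for ethoxysanguinarine over baicalin (exact permutation p = 0.175), 0.12 for ethoxysanguinarine over gastrodin (exact permutation p = 0.270) and 0.01 for gastrodin over baicalin (exact permutation p = 0.905). Valsartan was given at another dose and was left out of these comparisons.

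A scaling factor common to a whole library cancels in the ratio of Gna12 to Gnai3 within a heart. Other differences between libraries need not cancel. Over the 30 mice Gna12 followed the number of transcripts at 1 FPKM or more (r = 0.724) more closely than Gnai3 did (r = 0.211). Control mice 5155 and 5153 had the highest Control ratios, 9.80 and 7.50, and the most such transcripts among Control mice, 18655 and 19365. How far the ratio depends on this measure was not tested. Gna12 was 7.39 ± 1.47 times as high as Gnai3 in the Control mice (SD, n = 5), with values of 5.93 to 9.80. In the Ang II group the ratio was 5.59 ± 0.989, from 4.12 to 6.62, and it was 5.87 ± 0.708 with ethoxysanguinarine, 5.55 ± 0.757 with gastrodin and 5.60 ± 0.786 with valsartan (SD, n = 5 each). It was lowest with baicalin, at 4.67 ± 0.759 (SD, n = 5), where all mice, from 3.47 to 5.36, were below every Control mouse. As a difference of log2 ratios, Gnai3 relative to Gna12 was higher than in Control by 0.66 with baicalin (exact permutation p = 0.00794), by 0.40 in the Ang II group, by 0.40 with gastrodin, by 0.39 with valsartan and by 0.32 with ethoxysanguinarine (exact permutation p = 0.0317 for each of the last 4). After adjustment over the 15 pairs of groups all 5 of these had an adjusted p of 0.0952 (exact permutation test), so none passed. The p of 0.00794 with baicalin is the smallest that 5 mice against 5 allow. On its own it cannot pass over 15 pairs, so the adjusted p cannot decide whether the baicalin ratio differed. The ratio also differed between ethoxysanguinarine and baicalin by 0.34 (exact permutation p = 0.0397, adjusted p = 0.0992). Against the Ang II group the ratio differed by 0.26 with baicalin (exact permutation p = 0.175), and by 0.0021, -0.0077 and -0.08 with gastrodin, valsartan and ethoxysanguinarine (exact permutation p = 1, 0.952 and 0.595). No transcript background was computed for this ratio, which was formed for this pair of genes only.

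**Figure D3:**
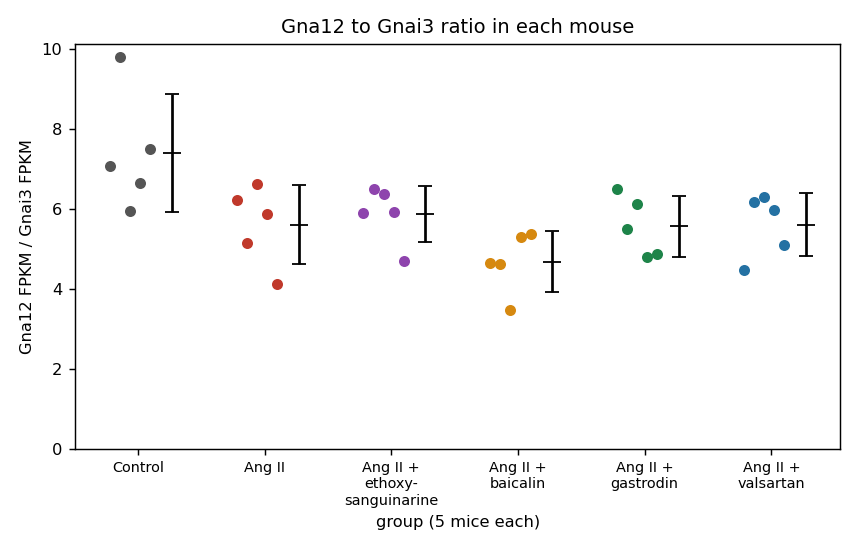
Ratio of Gna12 FPKM to Gnai3 FPKM (vertical axis, linear and starting at 0) in the 6 groups; points are single mice (5 a group), with the group mean and its SD drawn as a bar. The ratio is highest in the Control mice, from 5.93 to 9.80, and lowest in the baicalin mice, from 3.47 to 5.36.

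No relation between the levels of the subunits was detected from mouse to mouse. Over the 30 mice the correlation of their log2(FPKM + 1) values was r = -0.0435 (permutation p = 0.821, 100000 resamples), with Spearman's rho = 0.0563 (permutation p = 0.767). With the group means removed r was 0.141 (permutation p = 0.418) and rho 0.154 (permutation p = 0.418). Leaving out the 2 mice farthest from the median of Gnai3 gave r = 0.00015 and 0.201 for these forms. Among 18 relations of the members with each other and with measures of the library, each computed across all mice and with the group means removed, the adjusted p of these correlations was 0.832 and 0.683 (permutation test).

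The level of Gna12 followed measures of the library. It was higher in libraries in which more transcripts reached 1 FPKM (r = 0.724, rho = 0.672 across 30 mice, permutation test, adjusted p = 0.00018 and 0.0018). The relation was as strong within the groups (r = 0.723, rho = 0.701, adjusted p = 0.00171 and 0.00198) and remained without the 2 mice farthest from the median (r = 0.643 across all mice). It was lower in libraries with a higher sum of values (r = -0.57, rho = -0.576, permutation test, adjusted p = 0.00648 and 0.0049, and r = -0.65 and rho = -0.686 with the group means removed). When the number of detected transcripts was added to the fit, Gna12 differed from Ang II by -0.05 with baicalin and -0.07 with gastrodin and with valsartan. The part of these library measures in the level of Gna12 was not tested further. The share of all transcripts with correlations this strong was not computed, here or for Gnai3 below. Whether such relations are particular to the members is therefore unknown.

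Gnai3 was higher in libraries less like the rest of their group (r = -0.491, rho = -0.291 across 30 mice, permutation test, adjusted p = 0.0172 and 0.270, and r = -0.642, rho = -0.437 with the group means removed, adjusted p = 0.00824 and 0.0691). This relation rested largely on mice 5113 and 5156, which had the highest Gnai3 levels of all 30 mice, since r was -0.113 across all mice and -0.393 within groups without the 2 farthest libraries. The difference of Gnai3 between Control and the infused mice was nearly as large without these libraries, at 0.27 on the log2 scale (limma, adjusted p = 0.161). With the number of detected transcripts in the fit it was 0.33 (limma, adjusted p = 0.0762). Gnai3 itself followed the number of detected transcripts less closely than Gna12 did (r = 0.211 across all mice and 0.430 with the group means removed, permutation test, adjusted p = 0.474 and 0.0479, rho = 0.405 and 0.450, adjusted p = 0.0696 and 0.0687).

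**Figure D4:**
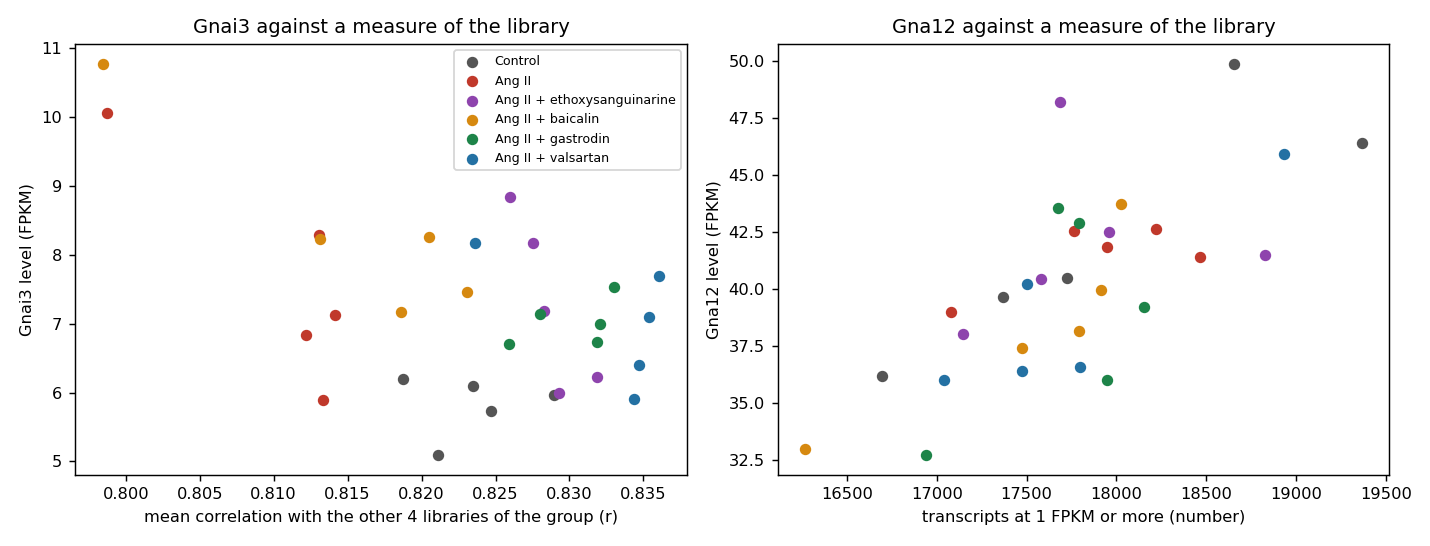
Left, Gnai3 level in FPKM (vertical axis) against the mean correlation of a library with the others of its group (horizontal axis); right, Gna12 level in FPKM against the number of transcripts at 1 FPKM or more in the library. Each point is 1 of 30 mice, coloured by group, and the axes do not start at 0. The 2 libraries at 0.798 and 0.799 on the left have Gnai3 levels of 10.8 and 10.1 FPKM, and on the right Gna12 rises with the number of transcripts (r = 0.724).

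The transcripts with the pattern most like that of each subunit were sought among 19471 transcripts, as a description without a test. For Gnai3 they were ENSMUST00000064667 (r = 0.866) and ENSMUST00000031866 (r = 0.861), where the median over all transcripts was 0.0467. Their mean levels were 18.9 and 14.7 FPKM, and like Gnai3 both were highest in mice 5113 and 5156. Without these libraries r was 0.790 and 0.772, and with the group means removed 0.799 and 0.841. For Gna12 they were ENSMUST00000013771 (r = 0.817, mean 69.6 FPKM) and ENSMUST00000091257 (r = 0.801, mean 54.6 FPKM), where the median over all transcripts was 0.136. With the group means removed r was 0.798 and 0.806. The points of these correlations share the 30 libraries and their scaling. None of these 4 transcripts could be given a gene name from the reference used here, and for the same reason the receptors, beta and gamma subunits, regulators and effectors of the pathway were not analysed here.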

How the data were processed

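RNA from the cardiac tissue of 30 mice was depleted of ribosomal RNA and sequenced by the authors. The transcript levels the authors deposited for each animal were taken to be FPKM, since they are not whole numbers and do not add up to a fixed total. No source used here gives the unit, aligner, assembler, quantifier or annotation. The submitters' processing notes name mm10 and limma, and the methods name DESeq. Every transcript listed for Control and Ang II mice reached a mean of 0.5 in at least 1 of these groups, so low transcripts had been removed. A value belongs to 1 transcript, and fragments shared with other transcripts of the gene, merged models included, may have been divided between them. Since depth is unknown, precision rests on the spread between mice. The labels name single mice, and no 2 libraries were near-identical (correlations of 0.783 to 0.844 over 435 pairs).

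Groups were taken from the labels. From the FPKM values, log2(FPKM + 1) was computed and the limma package (version 3.58.1, under R 4.3.3) gave two-sided moderated tests of each pair of groups, allowing the variance to follow the mean. A transcript was tested if 5 or more libraries had it at 1 FPKM or above, with Benjamini-Hochberg adjustment over all transcripts tested. DESeq was not used because the values are not counts. On this scale fold changes of low transcripts are understated. Exact tests, correlations and figures were made in Python 3.11.15 with numpy 2.4.6 and matplotlib 3.10.9. The fit was tested on simulated data with changes larger than any seen for the members. That test does not show how often differences as small as theirs would be found. The members and lists were chosen with earlier results of these data known. The named transcripts were the 2 members and, for each, the 2 with the highest correlation over 30 libraries at a mean of at least 1. The lists of pathway genes and of cell type markers were not used, as 0 entries of the reference table carry an Ensembl identifier. The alternatives were a pseudocount of 0.1, a filter on a mean of 5 or none at all, quantile normalization, equal library sums, no trend, 1 fit of all 6 groups and each mouse left out. The comparison of all infused mice, the relations with library measures, the covariate and the removal of the 2 libraries least like their group were added after the data were seen.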

Additional observations from a re-analysis of the deposited data

Results flagged for a closer look

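Single mice were compared with the other 4 of their group in 24 checks, on the Gnai3 level, the Gna12 level, their ratio and the likeness of the library to its group. By chance about 1 check in 20 would pick out a mouse, and 2 did, both for the likeness of the library. The library of Ang II mouse 5156 correlated with the other 4 Ang II libraries at 0.799 on average, where theirs ranged from 0.812 to 0.814. This mouse also had the highest Gnai3 level of its group, 10.1 FPKM, and a Gna12 level of 41.4 FPKM inside the range of the others. For Ang II + valsartan mouse 5131 the average was 0.824, where the other valsartan mice ranged from 0.834 to 0.836, and its Gnai3 level of 8.17 FPKM was the highest there. No Gnai3 level, Gna12 level or ratio was picked out. What sets these libraries apart was not tested.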

How the results depend on the processing

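No paired analysis was possible because the labels give every animal a number of its own and name no pairs. Of the planned comparisons of 2 groups or of all 6, none had Gnai3 or Gna12 at an adjusted p under 0.05 under any alternative tried (limma). The exceptions in direction are given here as log2 differences, and the cause was not tested. After quantile normalization Gna12 was at 0.035 for baicalin against Ang II, 0.0014 for valsartan against Ang II and 0.020 for ethoxysanguinarine against Control, and the last was 0.013 with equal library sums and 0.0069 with the covariate. Quantile normalization also brought Gnai3 in all infused mice past the threshold (0.32, adjusted p = 0.0436, limma). Without Ang II mouse 5156 Gnai3 was at 0.040 for ethoxysanguinarine, 0.0043 for gastrodin and 0.0035 for valsartan against Ang II. With single mice left out, Gna12 ranged from -0.081 to 0.032 for Ang II against Control, from -0.031 to 0.053 for ethoxysanguinarine against Ang II and from -0.063 to 0.050 for ethoxysanguinarine against Control. Gnai3 ranged from -0.13 to 0.040, -0.17 to 0.0043 and -0.17 to 0.0035 for ethoxysanguinarine, gastrodin and valsartan against Ang II. The upper ends are the values without mouse 5156 given above. The correlation of Gnai3 with Gna12 ranged from -0.104 to 0.121 with single mice left out and was 0.199 with equal library sums. The number of transcripts called at adjusted p moved more, from 7 to between 0 and 30 for Ang II against Control. Against Ang II it was 24 for ethoxysanguinarine (10 to 42), 3 for baicalin (0 to 54), 4 for gastrodin (0 to 11) and 4 for valsartan (0 to 6). Against Control it was 42 (17 to 78), 2 (0 to 48), 13 (3 to 15) and 2 (0 to 8) in the same order, with 112 for all infused mice (43 to 193) and 39 over the 6 groups (4 to 94).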
